A study of Mus musculus with 38 samples.

Results

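The replication-dependent histone genes encode the core histones H2A, H2B, H3 and H4 and the linker histone H1 from several gene copies each. All protein-coding genes with a symbol that starts with Hist1h, Hist2h, Hist3h or Hist4h were taken, which gave 67 of the 22401 genes in the count tables, and 3 pseudogenes with such symbols were left out. By class these were 6 genes of H1, 18 of H2a, 18 of H2b, 12 of H3 and 13 of H4. In the mm10 mouse genome 54 of them lie on chromosome 13, 10 on chromosome 3, 2 on chromosome 11 and 1 on chromosome 6.

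New DNA has to be packed into nucleosomes each time a cell divides, and most mRNAs of these genes are made in S phase for that purpose. Unlike other mRNAs they have no poly(A) tail and end just after a conserved stem-loop, which the stem-loop binding protein SLBP holds for 3′ end processing, translation and decay. Neurons have left the cell cycle, and replication-independent variants such as H3.3 (genes H3f3a and H3f3b) and H2A.Z (H2afz) supply their chromatin. Some cluster genes are also known to give polyadenylated mRNAs in differentiated cells.

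Footprints, the mRNA fragments protected by ribosomes, were sequenced by PL-Ribo-seq in 38 libraries of primary cortical neurons, taken from CD-1 mouse embryos and carrying a doxycycline-inducible lentivirus. The biotin ligase TurboID was either joined to PSD95 elements that take it to dendrites (TurboID-PSD95) or left without a localization signal (Pan-TurboID), and streptavidin pulldown libraries were set beside input libraries of all footprints. All groups received biotin (30 min by the labels) and cycloheximide (2 min). The KCl experiment (24 libraries, 3 per group) held inputs and pulldowns of both baits from resting neurons, for which no silencing is given, and from neurons silenced for 2 h with tetrodotoxin and DL-AP5 and then given 55 mM KCl over 1 h to depolarize them. The DHPG experiment (6 libraries, 3 per group) used TurboID-PSD95 neurons that were silenced for 2 h in the same way and then exposed over 10 min to 100 µM DHPG, which activates group I mGluRs (metabotropic receptors for glutamate). The knockdown experiment (8 libraries, 2 per group) used TurboID-PSD95 in resting neurons and in neurons silenced and depolarized as above, all after 20 nM siRNA against the translation factor eIF4G2 for 72 h. By the methods, biotin was given in fresh medium after KCl or DHPG had been removed, and after KCl this medium held tetrodotoxin and DL-AP5. For DHPG they give 20 min of biotin, where the labels give 30 min. Libraries with a control siRNA were not analysed here. The study's methods call the replicates of PL-Ribo-seq biological. The labels do not tie libraries to cultures, and p-values measure the spread between these libraries.

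The sequence after each coding sequence (CDS) is shown first because most of these genes share a pattern there that few others hold. The stem-loop pattern GGNNCTTNTNANNNCC was found on the sense strand within 150 bases after the CDS in 64 of 67 members (95.5%), and in 17 of 22321 other genes (0.0762%). On the antisense strand the pattern was found in 2 members and 18 other genes. It began 22 to 59 bases after the CDS, with a median of 31.5. The members without a match were Hist1h2an, Hist1h2bp and Hist2h2be. In its longest transcript the CDS of Hist1h2bp has 417 nt spread over chr13:21787515-21789063. The search for this gene began at the end of that stretch. Hist2h2be has an annotated 3′ UTR of 2192 nt. Members with a match can have longer ones, such as Hist1h1d (4931 nt) and Hist4h4 (2515 nt). Each line below gives 1 member with the stem-loop in capitals and 5 flanking bases on each side, 5′ to 3′ on the gene's strand.
Hist1h1d (H1): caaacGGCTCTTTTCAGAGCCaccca
Hist1h2af (H2a): ccaaaGGCTCTTTTCAGAGCCaccac
Hist2h2bb (H2b): caaaaGGCTCTTTTCAGAGCCacttt
Hist1h3g (H3): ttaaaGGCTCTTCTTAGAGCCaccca
Hist1h4m (H4): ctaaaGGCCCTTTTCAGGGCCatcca
Hist1h4j (H4): ctaaaGGTCCTTTTCAGGACCaccac
Hist2h4 (H4): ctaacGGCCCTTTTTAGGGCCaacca
The capitals lie in GRCm38 (mm10) at chr13:23555787-23555802 for Hist1h1d, chr13:23534359-23534374 for Hist1h2af, chr3:96270171-96270186 for Hist2h2bb and chr13:23535889-23535904 for Hist1h3g. For the H4 genes they lie at chr13:21812129-21812144 (Hist1h4m), chr13:21735437-21735452 (Hist1h4j) and, on the minus strand, chr3:96262939-96262954 (Hist2h4). The core of Hist1h1d is the commonest of 8 distinct cores, with 40 members. Counted from 1 at the 5′ end of the core, all 13 H4 cores carry T4C and A13G relative to the commonest core, which keeps the stem paired, and none of the 51 other cores does.

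Copies of these genes are so alike that a footprint often cannot be assigned to 1 of them. Of all 28-base windows in a member's CDS, the median share found once in the genome was 18.8%. It was under 10% in 14 members and over 90% in 5. By their longest transcripts, all 13 H4 genes encode 1 protein from 12 distinct CDSs, the 12 H3 genes encode 3 proteins, and the 18 H2a genes 9. Among the H3 genes the CDS of Hist2h3c1 has 546 nt in that transcript, against 411 nt in the others. The stretch of CDS bases 61 to 88 shows how H4 genes differ, with capitals where a base differs from Hist1h4m.
Hist1h4m: aaagtgctgcgcgataacatccagggca
Hist1h4n: aaagtgctgcgcgataacatccagggca
Hist1h4j: aaagtgctgcgcgaCaacatccagggca
Hist1h4h: aaagtgctgcgTgaCaacatccagggca
Hist1h4d: aaagtTctgcgcgaCaacatccagggca
Hist2h4: aaagtCTtgcgTgaCaacatccagggTa
Hist4h4: aaGgtTctCcgcgaCaacatccagggca
Over the whole CDS of 312 nt, Hist1h4n has 0 differences from Hist1h4m, Hist1h4h has 10, Hist1h4j 16, Hist1h4d 20, Hist2h4 34 and Hist4h4 42. Of the CDS windows, 84.3% are found once in the genome for Hist2h4, 97.8% for Hist4h4, 26.9% for Hist1h4j and 0% for Hist1h4m. Values of single members with low shares are therefore uncertain, and class sums are given beside them. Members that share reads are also not separate observations in counts of calls or of signs.

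The total count per library was 5906281 to 35643247, of which 2048604 to 14646402 lay in the CDSs of the longest transcripts. Neuronal markers summed to 4966 to 10489 CPM (counts scaled to a CDS total of 1000000 per library). Dlg4, the gene of PSD95, stood at 2017 ± 939 CPM (SD, n = 3) in resting TurboID-PSD95 pulldowns against 43.8 ± 5.53 CPM in resting Pan-TurboID pulldowns. In resting inputs it was at 159 ± 31.7 CPM with TurboID-PSD95 and 54.2 ± 5.16 CPM with Pan-TurboID. By the methods the TurboID-PSD95 construct carries rat PSD95, and its part in the Dlg4 counts was not tested. Eif4g2 stood at 284 ± 0.208 CPM (SD, n = 2) in resting knockdown inputs and 570 ± 10.4 CPM (SD, n = 3) in resting TurboID-PSD95 inputs. Markers of other cell types also had counts, which does not show how many such cells were present. The 8 progenitor markers summed to 847 to 2517 CPM in resting TurboID-PSD95 inputs, 340 to 349 in DHPG inputs, 1475 to 1544 in resting knockdown inputs and 2433 to 2528 in depolarized knockdown inputs. Microglial markers summed to at most 25 CPM in any library. In bulk footprints, fewer cells of a type and fewer footprints per cell cannot be told apart.

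Histone footprints were abundant in these cultures. The 67 members together took 9569 ± 1603 CPM (SD, n = 3) in resting TurboID-PSD95 inputs. All but 1 member, Hist1h1t, passed the filter on low counts. Hist1h1t, the testis-specific linker histone, had 30 counts over all 38 libraries and 0 in 23 of them, and it was not tested. The mean level per CDS length (CPM per kb of CDS) had a median of 166 over the members and reached 1423 in Hist1h4j. H4 genes held the highest places per length, with Hist1h4h at 1328, Hist1h4m at 1180 and Hist1h4d at 1016. The highest of the other classes were Hist1h2af at 752, Hist1h3g at 664, Hist1h2br at 444 and Hist1h1d at 205. By mean CPM the next in those classes were Hist3h2a, Hist1h3b, Hist3h2ba and Hist1h1c, and then Hist2h2aa1, Hist1h3f, Hist2h2bb and Hist1h1e. Levels of neighbouring copies share reads, so their order is uncertain.

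**Figure D1:**
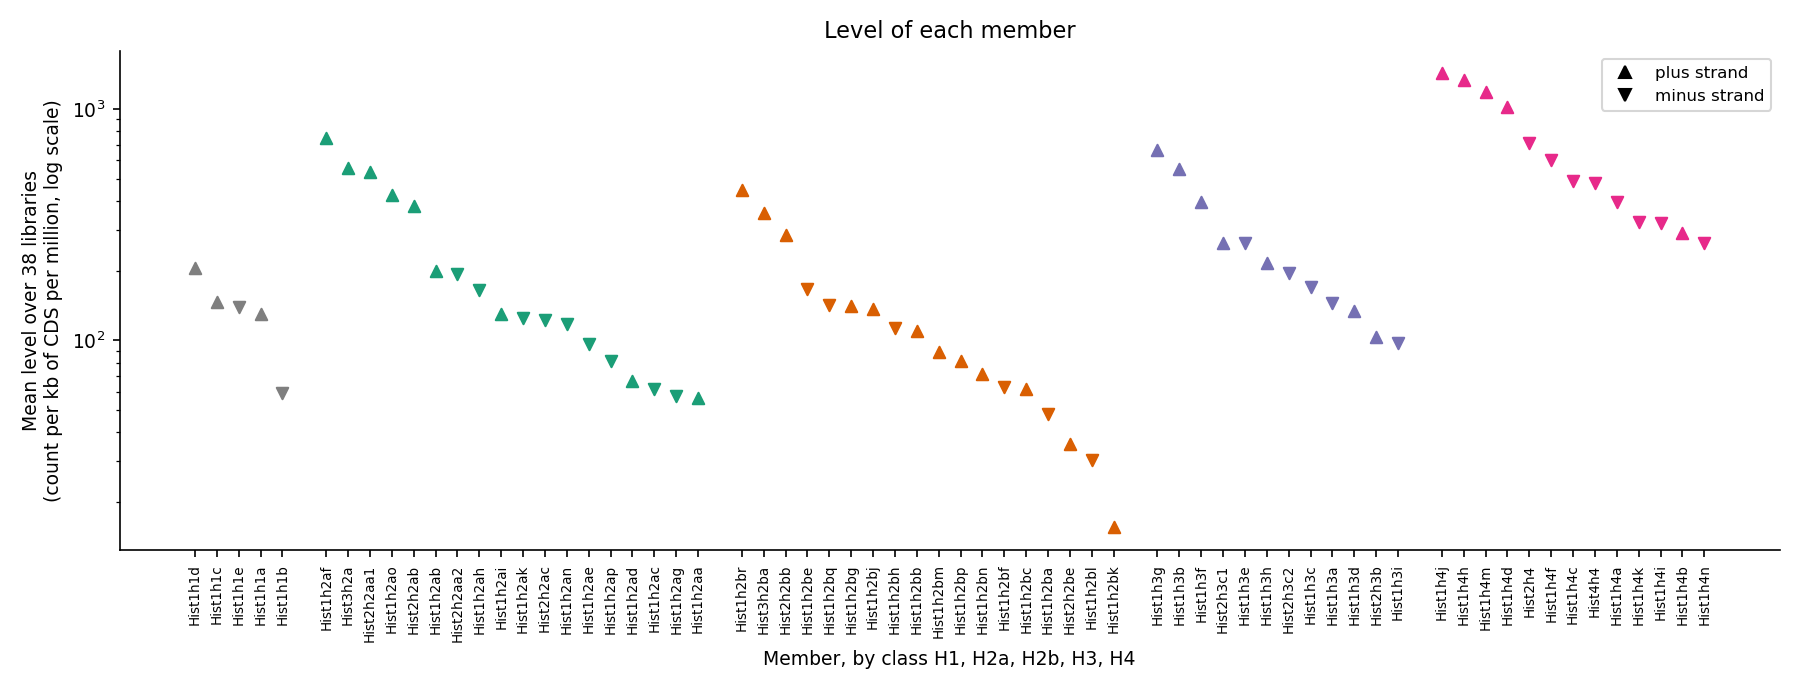
Mean level of 66 members over 38 libraries (CPM per kb of CDS, log scale), grouped and coloured by class and marked by strand, without Hist1h1t. The highest member of every class lies on the plus strand.

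Copies on the plus strand had the higher counts. In 4 pairs of members the CDSs are identical, with 1 copy on each strand, and the plus-strand copy was higher in 38 of 38 libraries in every pair. Hist1h2ao had 5.20 times the counts of Hist1h2ap, Hist1h4m 4.61 times those of Hist1h4n, Hist1h2br 3.22 times those of Hist1h2bq and Hist2h2aa1 2.78 times those of Hist2h2aa2. By library the ratio of Hist1h4m to Hist1h4n ranged from 3.10 to 8.36, and that of Hist2h2aa1 to Hist2h2aa2 from 2.07 to 4.93. Most or all windows of these genes have another match, so the split of reads within a pair rests on the handling of reads that align in several places, which is not stated. Members with 0% of unique windows, 10 in all, still held 308605 counts, 19.5% of the members' total. Over all members, the 9 plus-strand H2a genes had a median level of 382 CPM per kb and the 9 minus-strand ones 117, and for H4 these were 1180 (5 genes) and 439 (8 genes). The gap was narrower in H3 (264 and 170), H1 (138 and 99.3) and H2b (99.3 and 88.1). The part of read handling in these strand differences was not tested. Fold changes within pairs mostly lay close but could differ widely. Between 2 copies the absolute difference in log2 fold change over 20 comparisons had a median of 0.24 for Hist1h2ao and Hist1h2ap, 0.17 for Hist1h2br and Hist1h2bq, 0.15 for Hist1h4m and Hist1h4n and 0.12 for Hist2h2aa1 and Hist2h2aa2. The largest difference in these pairs was 0.88, 0.79, 0.31 and 0.68, and the copies had the same sign in 19, 20, 19 and 18 of the 20 comparisons.

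**Figure D2:**
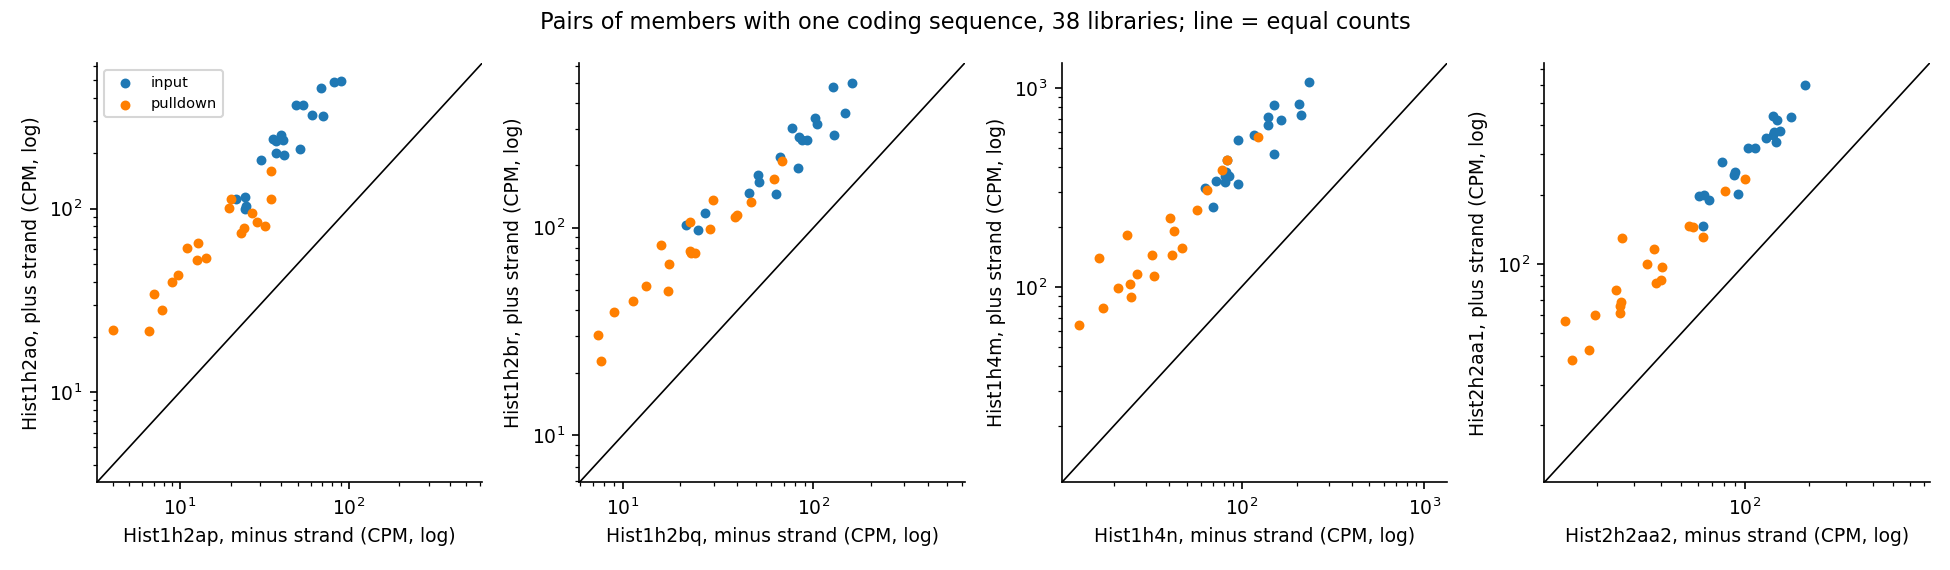
CPM (log scales) of the plus-strand copy against the minus-strand copy in 4 pairs of members with identical CDSs, 1 point per library, with inputs and pulldowns coloured apart. All 38 points of each pair lie above the line of equal counts.

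All classes had lower mean sums in pulldowns than in inputs. With each pulldown set against the input of the same bait, condition and number, the members' sum was lower in 19 of 19 pairs. At rest the sum was 8905, 11397 and 8404 CPM in TurboID-PSD95 inputs and 2940, 4706 and 2465 CPM in their pulldowns, so the groups did not overlap. The log2 ratio of pulldown to input was -1.55 ± 0.25 (SD, n = 3) for resting TurboID-PSD95 and -1.64 ± 0.11 for resting Pan-TurboID. After depolarization it was -1.37 ± 0.73 and -1.40 ± 0.27 with these baits. It was -2.05 ± 0.29 after DHPG (n = 3), and -1.84 ± 0.12 and -2.16 ± 0.02 in resting and depolarized knockdown neurons (n = 2 each). In the DHPG and knockdown experiments the numbers may not pair libraries. The pairs and SDs given for them rest on the label number alone.

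Some markers of other cell types were lower in pulldowns as well. With TurboID-PSD95 at rest, 3 of 8 progenitor markers passed as lower (all genes 16.4% lower) and all 8 were negative (median log2 fold change -1.04), and their sum was 847 to 2517 CPM in inputs and 348 to 1222 CPM in pulldowns, with overlap. With Pan-TurboID at rest 3 of 8 passed as lower (median -1.62, all genes 5.04% lower), and in the DHPG experiment 5 of 6 tested (all genes 39.3% lower). Vascular markers summed to 417 to 442 CPM in resting TurboID-PSD95 inputs and 133 to 207 CPM in the pulldowns, without overlap, and 1 of 5 tested was lower. Astrocyte markers summed to 564 to 1138 CPM and 700 to 1510 CPM. The part of these cells in the histone values of pulldowns was not tested.

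**Figure D3:**
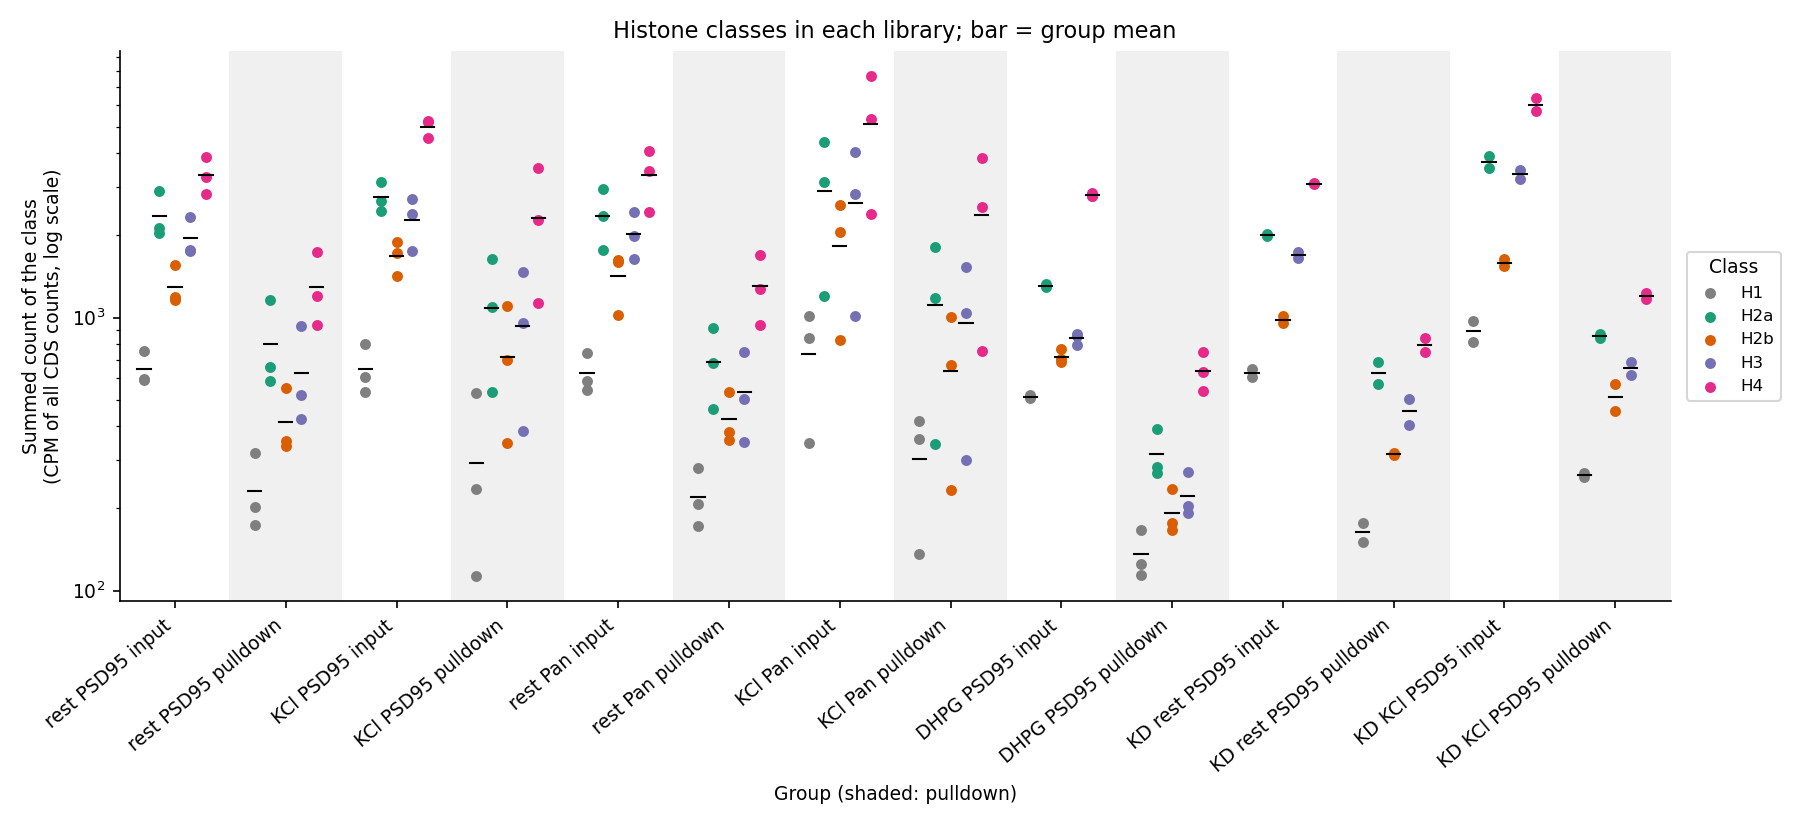
Summed CPM of each histone class (log scale) in every library by group, with bars at group means and pulldown groups shaded. Within each experiment and condition the pulldown means of all 5 classes lie below those of the inputs.

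Among single genes, Hist2h2bb, an H2B gene with 90.3% unique windows, had the smallest p. It was at 131, 166 and 135 CPM in resting TurboID-PSD95 inputs and 176, 185 and 103 CPM in resting Pan-TurboID inputs. In resting TurboID-PSD95 pulldowns it was at 45.0, 52.4 and 32.7 CPM, below all 6 inputs. Its log2 fold change against the mean of both inputs was -1.74 (SE 0.28, adjusted p = 0.000368, edgeR). Hist1h2ah changed by -2.09 (SE 0.42, adjusted p = 0.00165) and Hist2h3b by -1.79 (SE 0.42, adjusted p = 0.00369). Hist1h4j was at 500, 587 and 497 CPM in TurboID-PSD95 inputs and 197, 301 and 166 CPM in the pulldowns, a log2 fold change of -1.24 (SE 0.44, adjusted p = 0.0383). Hist1h1d, a linker histone gene, went from 156, 203 and 158 CPM to 60.7, 89.1 and 35.6 CPM.

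Of the 66 members tested, 60 were lower in resting TurboID-PSD95 pulldowns and 0 higher (edgeR's quasi-likelihood test, adjusted p below 0.05), where 16.4% of all genes were called lower. By class, 4 of 5 H1 genes, 16 of 18 H2a, 17 of 18 H2b, 11 of 12 H3 and 12 of 13 H4 were lower. The median log2 fold change was -1.52 (range -2.19 to -0.93), against -0.04 over all genes. Among the 13 tested members with over 50% unique windows, 10 were lower, with a median of -1.43. Histone CDSs are short, and short CDSs were lower in general. Over 1866 other genes with a CDS of 312 to 672 nt, the members' own range, the median was -0.81 and 39.2% were lower. After removal of the trend of each library with CDS length, 15 members were lower, with a median of -0.69, and 49 were lower with the replicate number as a block as well. With the block alone, 66 were lower. Without replicate 2 the count was 20, and without replicate 3 it was 1.

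In depolarized neurons 25 of 66 members were lower in TurboID-PSD95 pulldowns (median log2 fold change -1.20, all genes 6.84% lower), led by Hist1h2ah, Hist2h2bb and Hist1h2ab. Their sums in the 3 pulldowns were 2506, 8249 and 5262 CPM, a wide spread, against 10721, 12850 and 13539 CPM in the inputs. With Pan-TurboID, 38 were lower at rest (median -1.66, all genes 5.04% lower) and 14 after depolarization (median -1.36, all genes 3.64% lower). Hist2h2bb was first in both, with Hist1h2ah and Hist2h3b following at rest and Hist1h2bb and Hist1h1b after depolarization. Only 1 of 13 H4 genes was called at rest with Pan-TurboID, with a class median of -1.34. These 3 counts were 65, 66 and 65 with the replicate block, 37, 51 and 35 with the block and the length trend removed, and 11, 7 and 2 with the length trend removed alone. Without replicate 3 each was 0, and without replicate 2 they were 29, 0 and 0. Shares of all genes called in these refits are not given, so these counts cannot be set against them.

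Whether the localized bait was lower beyond the Pan-TurboID pulldown was tested as a difference of both ratios. Of 66 members 0 passed, and 0 had an unadjusted p below 0.05, where 0.00768% of all genes passed in either direction. DESeq2 also gave 0 members. The members' median difference was 0.16, and their smallest p was that of Hist1h2bb at 0.88 (adjusted p = 1, edgeR). The 1 gene of 13019 that passed was Dlg4, at 4.17 (adjusted p = 0.0412, edgeR), whose rat form the TurboID-PSD95 construct carries. The test thus called no gene apart from that of the bait.

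In the DHPG experiment 66 of 66 members were lower in pulldowns, where 39.3% of all genes and 81.8% of other genes with a CDS of 312 to 672 nt were lower. The members' median log2 fold change was -1.79 and that of the other short genes -1.25. Hist1h4a was at 179, 173 and 180 CPM in inputs and 31.6, 34.1 and 34.3 CPM in pulldowns, a log2 fold change of -2.20 (SE 0.07, adjusted p = 7.31e-14, edgeR). Hist1h4c and Hist3h2a followed, the latter at -1.85. With the length trend removed, 60 members were lower, with a median of -0.61.

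In knockdown neurons 64 of 66 members were lower in resting pulldowns (median -1.69, all genes 23.4% lower) and 63 in depolarized ones (median -1.95, all genes 24.8% lower). The smallest p-values were those of H4 genes, while the class medians of H3 (-1.85 and -2.34) and H4 (-1.84 and -2.27) lay close. Hist1h4d went from 315 and 295 CPM to 70.8 and 67.4 CPM at rest (log2 fold change -2.02, SE 0.12, adjusted p = 4.29e-13, edgeR), followed by Hist1h4m and Hist1h4j. Hist1h4j went from 874 and 1104 CPM to 168 and 187 CPM after depolarization (-2.38, SE 0.11, adjusted p = 1.38e-14), followed by Hist1h4m and by Hist1h4a at -2.75. Of other genes of 312 to 672 nt, 49.7% and 53.4% were lower, with medians of -0.90 and -1.06. With the length trend removed, 42 and 47 members were lower.

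**Figure D4:**
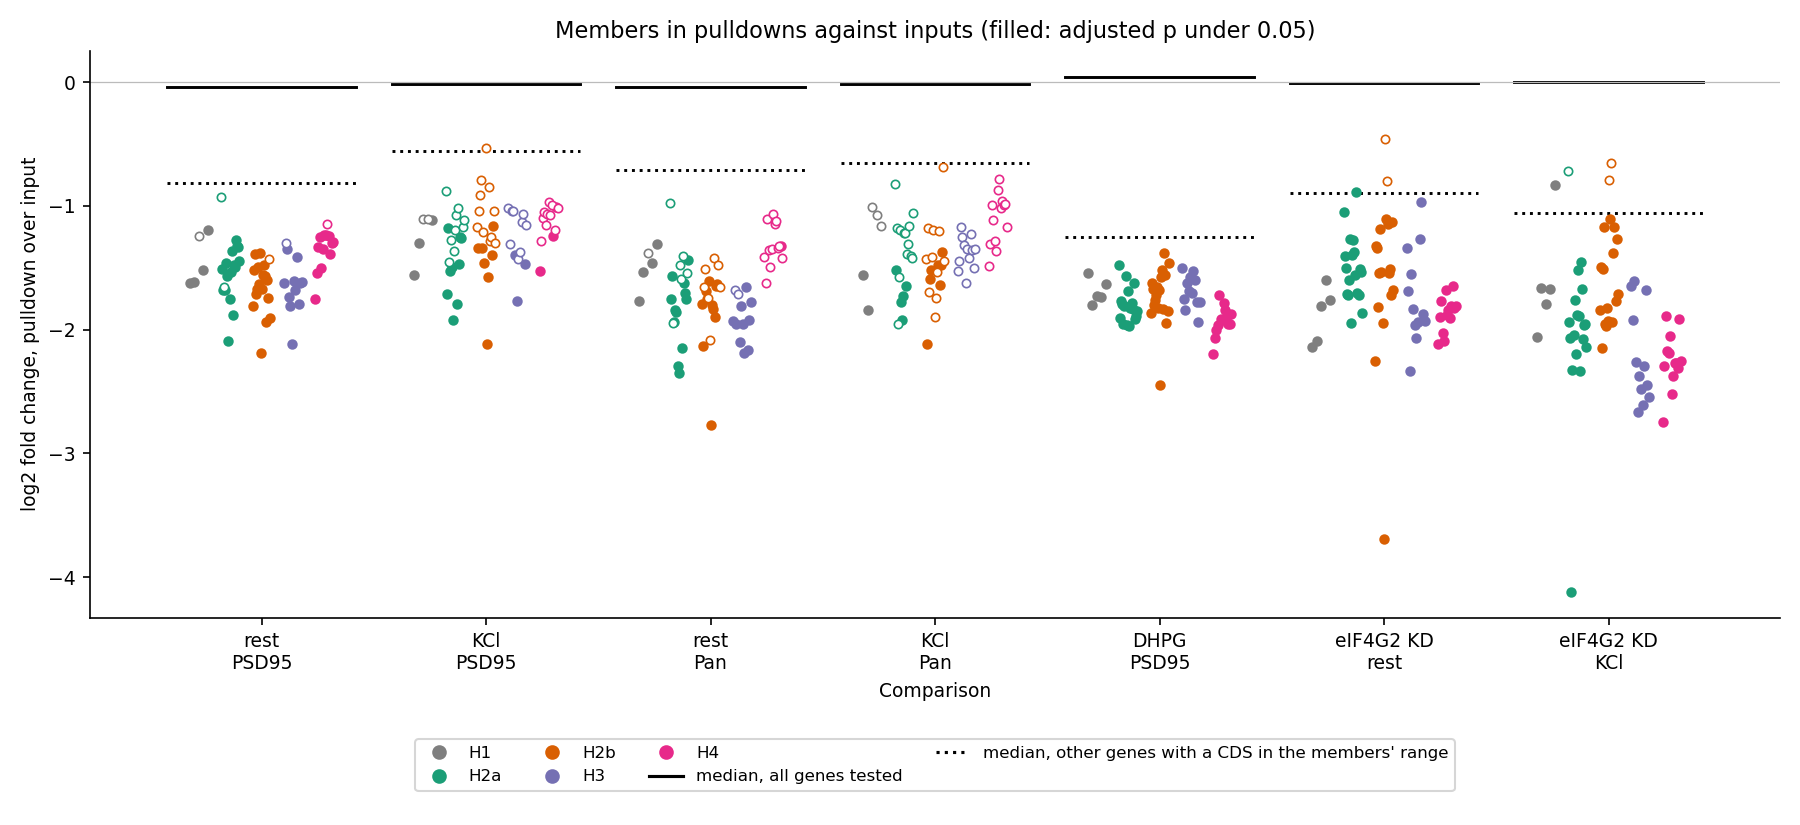
log2 fold change of pulldown over input for each tested member in 7 comparisons, coloured by class, with filled points past an adjusted p of 0.05 (edgeR). Solid lines mark the median of all genes tested and dotted lines that of other genes with a CDS of 312 to 672 nt. All members lie below the solid line in each comparison.

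Other genes of histone biology did not move as 1 block between pulldown and input at rest, where 14.7% of all genes were higher and 16.4% lower. Of 11 tested genes for replication-independent variants, 6 were lower with TurboID-PSD95 and 0 higher (median log2 fold change -1.21), among them H2afz at -1.18 and H3f3b at -1.30. Slbp, whose protein binds the stem-loop, was at -0.99 (adjusted p = 0.0122, edgeR). Of 11 tested genes for histone mRNA processing and control, 2 were lower and 2 higher, the latter Cpsf2 at 0.99 and Cpsf3 at 0.77, which encode subunits of the cleavage complex. Of 15 histone chaperone genes 5 were higher and 2 lower, with Rbbp7 at 0.93. Of 30 genes of S phase and the cell cycle 2 were higher and 1 lower, with a median of 0.06. Rrm1, a subunit of ribonucleotide reductase, was at 1.31 and the topoisomerase gene Top2a at 1.20, while Tyms was at -3.08.

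In the KCl experiment few histone genes passed the test as higher after depolarization. Levels and fold changes here are relative to the footprints of each library, and the paper reports fewer ribosomes on CDSs after depolarization. A higher value therefore shows a larger share of footprints and not more footprints per cell. No silencing is given for resting neurons, so KCl and the silencing before it cannot be told apart. The same holds for the knockdown experiment. Over the inputs of both baits 2 of 66 members were higher and 0 lower (all genes 6.32% higher), 62 had a positive log2 fold change, and the median was 0.34 against 0.29 over other genes of 312 to 672 nt. The 2 were Hist2h4 and Hist2h2bb, both with mostly unique sequence. Hist2h4, which lies on chromosome 3 apart from most H4 genes, was at 223, 309 and 254 CPM in resting and 454, 445 and 454 CPM in depolarized TurboID-PSD95 inputs, without overlap. With Pan-TurboID it was at 238, 306 and 201 CPM against 210, 399 and 560 CPM, which overlapped. Its log2 fold change over both baits was 0.74 (SE 0.24, adjusted p = 0.0385, edgeR), and that of Hist2h2bb was 0.62 (SE 0.21, adjusted p = 0.0424). Without replicate 1 the count was 11, and without replicate 2 or 3 it was 0. It was 4 with the replicate block, and 5 in DESeq2. Inputs of both baits with the same number and condition deviated together, with correlations of 0.250 to 0.626 over 6 pairs, and the test counted them as separate libraries.

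H4 had the highest class median. All 13 H4 genes had a log2 fold change of 0.49 to 0.98, with a class median of 0.59, while the medians of H1, H2a, H2b and H3 were 0.17, 0.26, 0.37 and 0.27. The difference between classes was not tested. In TurboID-PSD95 inputs the H4 sum rose 1.51-fold by group means without overlap (2837 to 3860 CPM at rest, 4553 to 5250 CPM after KCl), and the sums of the other classes overlapped at 1.00 to 1.29-fold. In Pan-TurboID inputs all classes overlapped. The sum of all members there was 5791, 14176 and 19698 CPM in depolarized libraries, and 9959, 11857 and 7405 CPM at rest. Depolarized library 1 was thus the lowest and library 3 the highest of all 6.

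Other lists of genes are given for the same inputs, where 6.32% of all genes were higher and 9.03% lower. The replication-independent variants H3f3b (log2 fold change 1.07, adjusted p = 0.00508, edgeR) and H2afz (0.71, adjusted p = 0.0139) were higher after KCl, 2 of 11 tested, with 0 lower. Of 15 histone chaperone genes 4 were lower and 0 higher. Of 8 neuronal markers 3 were lower, and of 30 genes of S phase and the cell cycle 1 was lower and 0 higher. Of 7 oligodendrocyte markers 0 passed and all were negative (median -1.03), with sums of 244 to 608 CPM in resting and 162 to 255 CPM in depolarized TurboID-PSD95 inputs. Of 8 progenitor markers 0 passed. The part of these cells in the histone values was not tested.

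In pulldowns 1 of 66 members was higher after KCl with TurboID-PSD95 (all genes 3.31% higher) and 0 with Pan-TurboID (all genes 1.87% higher). The 1 member was Hist2h2bb, with 45.0, 52.4 and 32.7 CPM at rest and 73.4, 126 and 98.5 CPM after KCl (log2 fold change 1.20, SE 0.31, adjusted p = 0.0173, edgeR). With Pan-TurboID, Hist2h4 had the smallest p at 1.02 (adjusted p = 0.0885, edgeR), with 0.0321 in DESeq2 and 0.0307 with the replicate block. The members' medians were 0.74 and 0.75, and 9 and 12 members had an unadjusted p below 0.05. The share of all genes at that unadjusted p was not counted. Other genes of 312 to 672 nt had medians of 0.52 and 0.35, and 8.57% and 3.54% of them were higher. Without replicate 1 these counts were 9 and 18 members past the adjusted p, and without replicate 2 or 3 they were 0. With the block they were 3 and 2, and 3 and 3 in DESeq2. The change of the ratio of TurboID-PSD95 pulldown to input with KCl passed in 0 members and had an unadjusted p below 0.05 in 0 (all genes 0.00%, DESeq2 0 members), with a median of 0.27 and the smallest p for Hist1h2bf at 0.88.

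In eIF4G2 knockdown neurons most histone genes were higher after silencing and KCl than at rest. Of 66 members 55 were higher in depolarized inputs and 0 lower (edgeR), all 66 had a positive log2 fold change, and the median was 0.91. Of all genes 8.96% were higher. By class these were 3 of 5 H1 genes, 17 of 18 H2a, 10 of 18 H2b, 12 of 12 H3 and 13 of 13 H4. The members' sum went from 8321 and 8485 CPM to 14796 and 16312 CPM, and every class rose without overlap, from 1.42-fold in H1 to 1.97-fold in H3. The share of all genes without overlap between these groups of 2 libraries was not counted. Of the members with over 50% unique windows 8 of 13 were higher, with a median of 0.75.

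The smallest p-values were those of H4 genes with high counts, while the largest fold change was that of the H2a gene Hist1h2ad, chosen after its values were seen, at 1.64, against at most 1.34 in H4. Hist1h4m was at 377 and 360 CPM at rest and 735 and 827 CPM after KCl, a log2 fold change of 1.10 (SE 0.10, adjusted p = 5.1e-09, edgeR). Hist1h4h went from 424 and 424 CPM to 801 and 936 CPM (1.05), and Hist1h4j from 480 and 494 CPM to 874 and 1104 CPM (1.03). Hist1h3g, an H3 gene, went from 309 and 369 CPM to 665 and 704 CPM, and Hist1h1d from 180 and 193 CPM to 218 and 265 CPM. Other genes of 312 to 672 nt had a median of 0.31 and 15.0% of them were higher. With the length trend removed 36 members were higher, with a median of 0.59. Leaving out any 1 library of these inputs left 40 to 44.

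Sums of several marker lists were higher too in these inputs, where 8.96% of all genes were higher and 10.3% lower. The 30 genes of S phase and the cell cycle summed to 926 to 954 CPM at rest and 1182 to 1215 CPM after KCl. Singly, 2 of them were higher, a share under that of all genes, and 1 lower. Mki67 was at 0.49, Pcna at 0.51 and Ccne1 at -2.22. Progenitor markers went from 1475 to 1544 CPM to 2433 to 2528 CPM, with 3 of 7 tested genes higher, among them Vim at 0.87 and Nes at 0.69. The variants H3f3b (0.95) and H2afx (0.63) and the chaperone Nasp (0.63) were higher too. Of 8 neuronal markers 1 was higher and 4 were lower. Astrocyte markers went from 639 to 662 CPM to 787 to 843 CPM, with 2 of 7 tested genes higher, and vascular markers from 179 to 180 CPM to 288 to 300.2 CPM, with 1 of 5 higher. The part of these cells in the histone rise was not tested.

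In knockdown pulldowns 29 of 66 members were higher after KCl and 0 lower (median 0.53, all genes 10.2% higher), and every class rose without overlap, the sum of all members by 1.48-fold. Here too the share of all genes without overlap was not counted. Hist1h2br went from 49.7 and 52.5 CPM to 106 and 115 CPM (log2 fold change 1.12, SE 0.14, adjusted p = 1.61e-06, edgeR), followed by Hist2h4 at 0.89 and Hist1h4d at 0.86. Without resting pulldown replicate 1 the count was 19. Of 30 genes of S phase and the cell cycle 10 were higher in these pulldowns and 1 lower. Progenitor markers summed to 878 to 889 CPM at rest and 1565 to 1607 CPM after KCl, without overlap, with 3 of 7 tested genes higher. Of 7 astrocyte markers 3 were higher and 1 lower, and of 8 neuronal markers 2 were lower. The part of these cells in the histone values was not tested.

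Whether the response to KCl differed between knockdown neurons and those without knockdown was tested as a difference, a comparison added after the values were seen. In inputs 0 of 66 members passed (all genes 0.00758% higher) and 4 had an unadjusted p below 0.05, with a median of 0.55 and 65 positive values. Members share reads, so these signs are not separate observations. The shares of all genes at that unadjusted p and with a positive value were not counted. DESeq2 gave 0. In pulldowns 0 passed (all genes 0.447% in either direction), with 0 at an unadjusted p below 0.05.

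**Figure D5:**
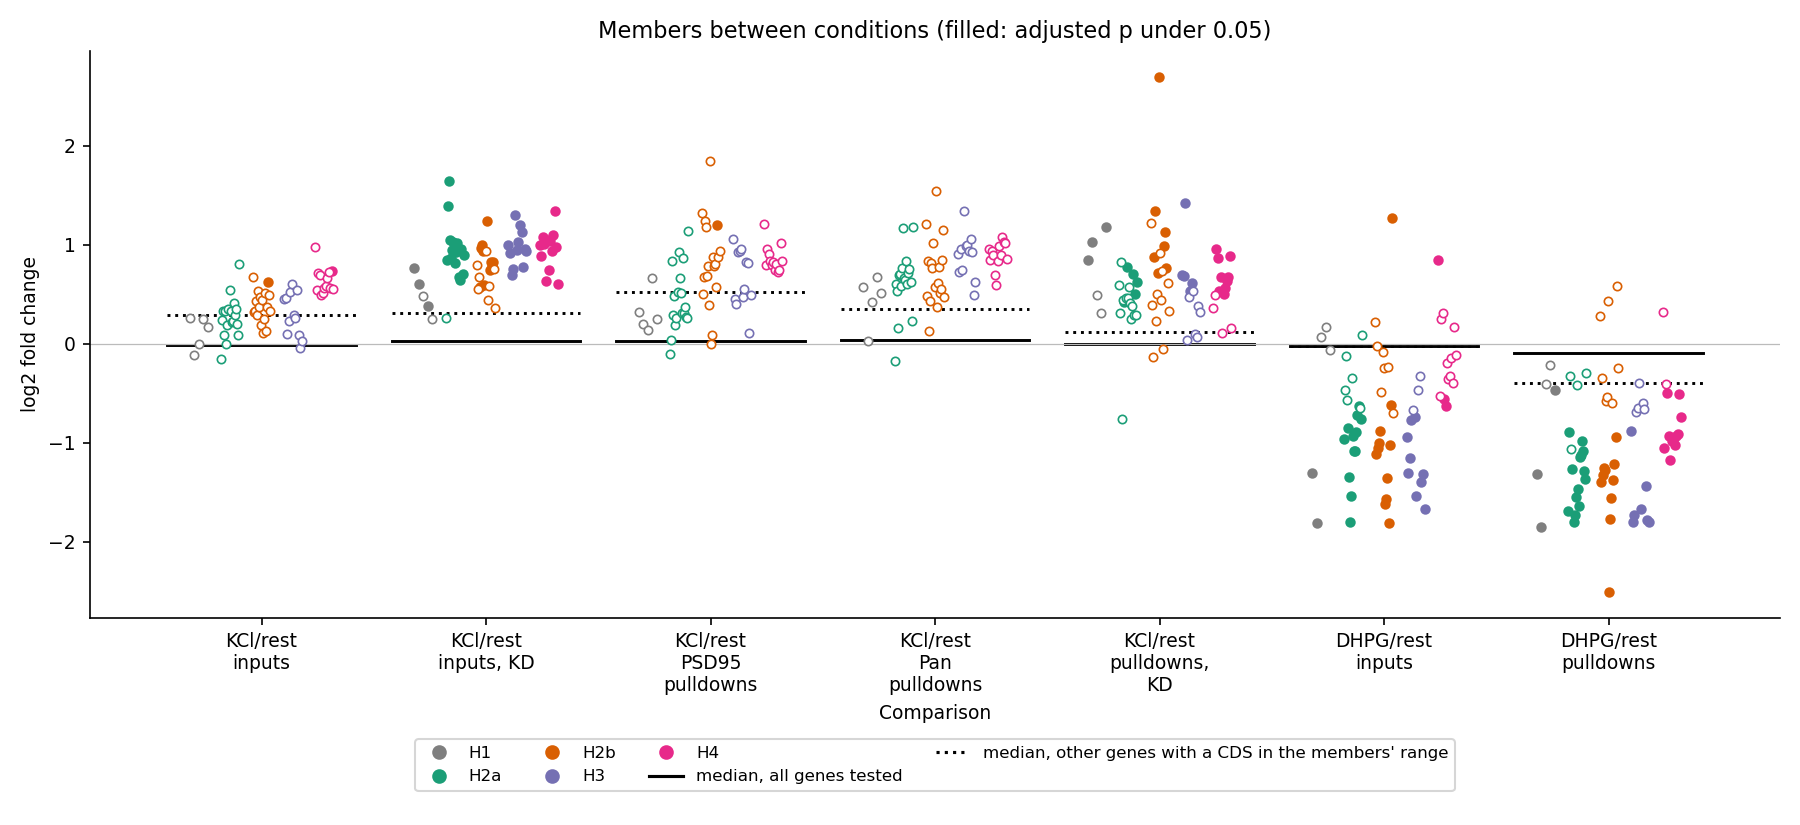
log2 fold change of each tested member between conditions in 7 comparisons, coloured by class, with filled points past an adjusted p of 0.05 (edgeR), solid lines at the median of all genes and dotted lines at that of other genes with a CDS of 312 to 672 nt. All members lie above 0 in the knockdown inputs, and in DHPG inputs the H4 genes lie higher than most of the other core histones.

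The DHPG libraries were compared with resting TurboID-PSD95 libraries of the KCl experiment, so that the treatment, the silencing before it and the experiment cannot be told apart. The same resting libraries serve as controls in the other comparisons above. In inputs 35 of 66 members were lower (all genes 16.5% lower) and 2 higher (all genes 16.3% higher). The members' median log2 fold change was -0.66. Other genes of 312 to 672 nt had a median of -0.03. By class, a difference that was not tested, lower were 9 of 12 H3 genes, 12 of 18 H2a, 10 of 18 H2b, 2 of 5 H1 and 2 of 13 H4. The H3 sum was 1746 to 2336 CPM at rest and 794 to 868 CPM after DHPG, a 0.43-fold level without overlap. The H4 sum was 2837 to 3860 CPM and 2775 to 2849 CPM, at 0.84-fold with overlap. The ratio of the H4 to the H3 sum within a library was accordingly 1.62 to 1.84 at rest and 3.25 to 3.50 after DHPG.

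Single genes split within their classes. Hist1h1b was at 77.0, 92.6 and 57.4 CPM at rest and 18.2, 21.6 and 20.7 CPM after DHPG (log2 fold change -1.81, SE 0.24, adjusted p = 2.87e-05, edgeR), and Hist1h1a was also lower at -1.31. The linker histone genes Hist1h1c (0.07), Hist1h1d (0.17) and Hist1h1e (-0.06) did not pass. Hist1h2bm was at -1.56. Hist1h2bq was at -1.82, and Hist1h2br, the copy with an identical CDS, at -1.03, the widest gap of that pair in any comparison. Hist1h2af went from 414, 543 and 449 CPM to 175, 171 and 170 CPM, and Hist1h3g from 343, 514 and 413 CPM to 138, 150 and 121 CPM. Among H4 genes, Hist1h4j went from 500, 587 and 497 CPM to 380, 396 and 377 CPM (-0.36, adjusted p = 0.163). Hist1h4a was higher, at 86.9, 138 and 91.2 CPM against 179, 173 and 180 CPM (0.85, SE 0.21, adjusted p = 0.00671). Hist2h2be, which lacks a match to the stem-loop pattern, was at 6.83, 21.6 and 6.76 CPM against 29.9, 22.0 and 26.7 CPM (1.28, SE 0.41, adjusted p = 0.0268). Without replicate 1 or 3 neither of these rises passed.

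Members with a longer annotated 3′ UTR stood higher in this comparison, a split made after the values were seen and not tested. The 24 tested members with an annotated 3′ UTR of at least 200 nt had a median log2 fold change of -0.27 in inputs, with 8 lower and 1 higher. The other 42 had a median of -0.81, with 27 lower and 1 higher. In pulldowns the medians were -0.54 and -1.16. For resting TurboID-PSD95 pulldown over input they were -1.51 and -1.54, and for depolarized over resting knockdown inputs 0.86 and 0.92. The order was the opposite for knockdown against none in pulldowns, with -0.72 and -0.24 after depolarization and -0.53 and -0.30 at rest.

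In pulldowns after DHPG 45 of 66 members were lower than in resting TurboID-PSD95 pulldowns and 0 higher (a median of 2.01-fold lower, all genes 26.0% lower). Other genes of 312 to 672 nt had a median of -0.40 and 32.4% were lower. The members were led by Hist1h2bm at -1.77, Hist1h3b at -1.80 and Hist1h1b at -1.85. Here 11 of 13 H4 genes were lower, with a class median of -0.93. The sum of all members was 0.45-fold, and the H4 to H3 ratio was 2.76 to 3.09 after DHPG and 1.87 to 2.30 at rest.

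Many markers of dividing and non-neuronal cells were also lower in DHPG inputs, where 16.5% of all genes were lower and 16.3% higher. There 14 of 30 genes of S phase and the cell cycle were lower and 0 higher (median -1.06), with Mki67 at -2.86, Top2a at -1.70 and Mcm3 at -1.50. Their sum was 442 to 782 CPM at rest and 308 to 318 CPM after DHPG. Lower were also 6 of 8 progenitor markers (Hes5 at -3.53, Fabp7 at -2.49), 6 of 7 tested astrocyte markers, 5 of 7 oligodendrocyte markers and 4 of 5 vascular markers. The part of these cells in the histone values was not tested. Of 11 genes for replication-independent variants 1 was lower (H2afv, -1.56) and 1 higher (H2afy2, 0.46), shares under those of all genes.

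Knockdown libraries were set against libraries without knockdown from the KCl experiment, so that knockdown and experiment cannot be told apart either. In resting inputs 0 of 66 members passed in edgeR (all genes 3.90% in either direction), 5 had an unadjusted p below 0.05 and DESeq2 also gave 0. All genes were not counted at the unadjusted p. Hist1h2bn had the smallest p, at -1.16 (adjusted p = 0.0997). In depolarized inputs 2 were higher (all genes 3.18% higher), Hist1h2ac at 1.11 (adjusted p = 0.0351) and Hist1h1a at 1.23 (adjusted p = 0.0362). Hist1h1a was at 103, 127 and 131 CPM without and 260 and 294 CPM with knockdown. In the same inputs 10 of 30 genes of S phase and the cell cycle were higher and 0 lower (median log2 fold change 1.44), and their sum was 381 to 645 CPM without and 1182 to 1215 CPM with knockdown. Microglial markers summed to 3.32 ± 2.25 CPM (SD, n = 3) without and 19.4 ± 7.67 CPM (SD, n = 2) with knockdown. The part of such cells in the histone values was not tested. Leaving out 1 library left 0 or 1 of these calls, and with the length trend removed 12 members were higher.

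In resting pulldowns 2 of 66 members were lower with knockdown, a share under that of all genes (4.96% lower). They were Hist1h4d at -1.09 and Hist1h4i at -0.94. The count was 0 without either knockdown pulldown or without resting pulldown replicate 2, 1 without resting pulldown replicate 1 and 3 without replicate 3. In depolarized pulldowns 9 of 66 members were lower, a share near that of all genes (11.0% lower) and below that of other genes of 312 to 672 nt (19.4% lower). Of the 9, 6 were H4 genes. The smallest p-values were those of the H4 genes Hist1h4i at -1.64 and Hist1h4d at -1.09 and of the H2B gene Hist2h2bb at -0.90. Hist1h4i was at 54.4, 121 and 100 CPM without and 30.9 and 25.4 CPM with knockdown. Those other short genes had a median of -0.64, and with the length trend removed the members' median turned to 0.26. The count was 21 without depolarized pulldown replicate 1, and 1 without replicate 2 or without either knockdown pulldown. Of 30 genes of S phase and the cell cycle 17 were higher in these pulldowns and 0 lower (all genes 7.96% higher).

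Shares of footprints outside the CDS are given without scaling for segment length. They do not compare footprint density between members and other genes. In the 52 members with an annotated 3′ UTR of at least 30 nt, the 3′ UTR held 0.0586% to 0.36% of the counts of 3′ UTR and CDS together by group mean, while over 20796 other genes it held 2.06% to 6.44%. In the 37 members with a 5′ UTR of that length, the 5′ UTR held 15.3% ± 0.624 (SD, n = 3) in resting TurboID-PSD95 inputs and 11.9% ± 2.03 in pulldowns. Over other genes these shares were 20.7% ± 3.15 and 7.83% ± 2.56. Counts were placed at the 5′ ends of footprints, so ribosomes on the first codons count as 5′ UTR.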

How the data were processed

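According to their methods and the file headers, the authors trimmed reads, removed molecular identifiers, aligned to mm10 with Rsubread and counted 5′ ends of alignments of 25 to 100 nt per segment with plastid, with offset 0. The treatment of strand and of reads that align in several places is not given in the sources used here. The deposited counts are whole numbers per CDS, 5′ UTR and 3′ UTR of each transcript. The longest transcript per gene was used. Of 67238 coding transcripts 66664 (99.1%) matched GENCODE M21. The deposited RPKM values were not used. Levels per CDS length were computed from counts.

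All genes were fitted with edgeR 4.0.16 in R 4.3.3 (quasi-likelihood F test, robust, TMM, filterByExpr, Benjamini-Hochberg over all genes, threshold 0.05). TurboID-PSD95 pulldowns of the KCl experiment were set against the mean of both inputs. Whether groups overlap is a description, and the share of all genes without overlap was not counted in any comparison. DESeq2 1.42.0, edgeR's likelihood ratio test, other scaling, filters and transcripts, a removed trend with log2 CDS length, replicate blocks and left-out replicates were alternatives. Members and lists were chosen with earlier results of these data known. Named are the 3 members per class with the highest mean CPM and the 3 per comparison and direction with the smallest p past the threshold (else the smallest p), and some further genes chosen after their values were seen.

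By the methods, a share of the fraction of single ribosomes (monosomes) was kept as input, and pairs were formed by the number in the labels. Deviations of such pairs from their group means correlated at 0.293 to 0.647 over 12 pairs in the KCl experiment. In the others they correlated at -0.176 to 0.0423 over 7 pairs, where both pairs of a knockdown group give the same value. These values do not show that the numbers pair libraries there. Ratios by number and replicate blocks in those experiments still used the numbers. Between baits they correlated at 0.146 to 0.626 over 12 pairs. Genomic windows and stem-loops were read from GRCm38. Descriptions in the labels place some DHPG and knockdown libraries in the cytosol, and the virus field (PSD95) was used.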

Additional observations from a re-analysis of the deposited data

How the results depend on the processing

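Numbers of members called kept within 1.5 times of those above in 173 of 239 refits. The percentages of all genes above belong to the main fits. None are given for the refits, so a changed count of members may go with a changed count over all genes. Medians reversed their sign in 3 refits, counted only for comparisons with members called in the main fit. Sign changes in other comparisons were not counted. With the trend with CDS length removed, 15 members were called for resting TurboID-PSD95 pulldowns, 11 for depolarized ones, 7 and 2 for Pan-TurboID, 42 for resting knockdown pulldowns, 36 for depolarized knockdown inputs (36 with the block too), and 1 and 12 for knockdown against none in resting and depolarized inputs (2 and 15 with the block). The median of knockdown against none in depolarized pulldowns reversed to 0.26, to 0.22 with the block as well, and ran from -0.70 to 0.076 on leaving out 1 replicate, the highest without depolarized TurboID-PSD95 pulldown replicate 2. The replicate block alone gave 65, 66 and 65 for depolarized TurboID-PSD95, resting Pan-TurboID and depolarized Pan-TurboID pulldowns (35 for the last with the length trend removed), 4 for KCl in inputs, 3 and 2 (2 with the length trend removed) for KCl in TurboID-PSD95 and Pan-TurboID pulldowns and 5 for knockdown against none in depolarized inputs, and moved no other count by over 1.5 times. The likelihood ratio test gave 42 and 34 for depolarized TurboID-PSD95 and Pan-TurboID pulldowns, 2 for KCl in TurboID-PSD95 pulldowns and 6 for knockdown in depolarized inputs. DESeq2 gave 49, 43, 5, 3, 3 and 5 for depolarized TurboID-PSD95 and Pan-TurboID pulldowns, KCl in inputs and in both pulldowns, and knockdown in depolarized inputs. Without a filter the counts were 12, 16 and 5 for depolarized TurboID-PSD95, resting Pan-TurboID and depolarized Pan-TurboID pulldowns, 0 for KCl in inputs, and 2, 7 and 5 for knockdown in resting inputs, depolarized inputs and resting pulldowns. With its own input alone, depolarized TurboID-PSD95 gave 9. The cause was not tested.

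Leaving out 1 replicate gave 1 to 58 members for resting TurboID-PSD95 pulldowns, 0 to 31 for depolarized ones, 0 to 49 and 0 to 21 for Pan-TurboID, 0 to 11, 0 to 9 and 0 to 18 for KCl in inputs, TurboID-PSD95 and Pan-TurboID pulldowns, 66 to 66 for DHPG pulldowns, 27 to 31 and 32 to 51 for DHPG against rest in inputs and pulldowns, 61 to 64 and 61 to 62 for knockdown pulldowns, 40 to 44 and 19 to 30 for KCl with knockdown, and 0 to 0, 0 to 1, 0 to 3 and 1 to 21 for knockdown against none. With 2 libraries per group, a lone library was assumed to vary like the others. With the transcript of the highest count, the members' sum was 6024 CPM in DHPG inputs and 8196 CPM in resting knockdown inputs. Leaving out 1 library moved the sums of the 14 groups to between 1351 and 16937 CPM. Shared sequence and the unstated handling of such reads limit single members, and 2 to 3 libraries per group limit the smallest change that can be called.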
